A study of Homo sapiens with 25 samples.

Results

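Antisense oligonucleotides ASO3 and ASO5, directed at the same long noncoding RNA, candidate 42, were compared with each other in A549 cells. A549 is an established line of human lung adenocarcinoma. The comparison used 6 of the 25 libraries of the series, namely replicates 3, 4 and 5 of candidate 42 ASO3 and replicates 3, 4 and 5 of candidate 42 ASO5, taken as 3 pairs by replicate number. They were taken by their labels. Total RNA had been collected 24 h after transfection, and the dose was 25 nM for both ASOs and for the neutral control ASO from Qiagen (Control A). The 3 A549 control libraries served as a reference for the level without either ASO, and 4 libraries of the same ASOs in NCI-H460, a second established lung cancer line with 2 replicates per ASO, served as a comparison between lines. The labels do not say whether replicates were separate cultures or transfections, so p-values measure the spread between these libraries, which may be technical. All values describe bulk RNA, in which fewer cells of a kind and less RNA per cell cannot be told apart.

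An antisense oligonucleotide of the cleaving kind pairs with its RNA in the nucleus or cytoplasm, and RNase H then cuts the RNA strand of the hybrid. ASOs of different sequence against one target are used side by side because what they share can come from losing the target, while each sequence also meets its own set of other RNAs. Unspliced transcripts are accessible to nuclear RNase H as well, so introns count among the sequence an ASO can meet. The sequences of ASO3 and ASO5 were not used here.

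The ASOs gave separate expression profiles. The values are rescaled TPM, a level corrected for transcript length and library size, and differences are of log2(TPM + 0.5), ASO5 minus ASO3, with a standard error (SE). Of 14740 genes that averaged 1 TPM or more over the A549 libraries, 4248 (28.8%) differed at an adjusted p under 0.05 (limma, Benjamini-Hochberg) with the replicate number as a block. Of these, 2338 (15.9%) were higher and 1910 (13%) were lower with ASO5. Without the block, 1895 genes (12.9%) were called, of which 1082 (7.34%) were higher and 813 (5.52%) lower, and 1894 of the 1895 were among the 4248. The 2 groups of libraries did not overlap for 1885 of the genes called higher and 1517 of those called lower. Overlap was counted among called genes only, and a call itself favours groups that do not overlap, so these counts are no separate support. The difference was at least 1 on the log2 scale for 253 genes higher and 235 lower with ASO5, and at least 2 for 26 and 20. ASO3 libraries lay between -29.9 and -22.2 and ASO5 libraries between 24.3 and 32.9 on the leading principal component, which held 42.4% of the variance. The second (26.4%) set the replicate 3 libraries of both ASOs, at -33.7 and -26, apart from the other 4, which lay above 0. The median difference over all genes was 0.00241. Against control, in a fit of 9 libraries, 3114 genes (21.1%) differed with ASO3, 9.38% of all genes higher and 11.7% lower, and 1486 (10.1%) with ASO5, 4.59% higher and 5.49% lower. Epithelial keratins and adhesion genes marked all 9 libraries. The summed level of 6 epithelial markers was 6700 to 8050 TPM with ASO3, 9940 to 10300 with ASO5 and 8700 to 10100 in the controls. Of 7 alveolar markers, NAPSA alone reached a mean of 1 TPM, and so did COL1A1 of 7 fibroblast markers and CD14 of 5 leukocyte markers. None of the 4 endothelial markers did. The keratins KRT8 and KRT18 were higher with ASO5 than with ASO3 by 0.35 and 0.53, and the differences were -0.87 for CD14, -0.61 for CD68 and 0.94 for ITGAM, the 3 leukocyte genes that were tested, all called. The part of these shifts in the results was not tested.

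The target, AC107959.3, was lowest with ASO3. It is annotated as an antisense RNA gene on the minus strand at chr8:23071377-23074488 (GRCh38, GENCODE v29). Its level was 1.13, 0 and 0.824 TPM in ASO3 replicates 3, 4 and 5, against 4.81, 2.79 and 2.66 TPM with ASO5 and 7.13, 5.12 and 10.6 TPM in the controls. The 3 groups did not overlap. ASO5 exceeded ASO3 by 1.89 (SE 0.32, adjusted p = 0.0118, limma), higher in 3 of 3 pairs. Relative to control, the log2 difference was -2.93 for ASO3 (adjusted p = 0.0011) and -1.03 for ASO5 (adjusted p = 0.082). The sources used here do not say how the counting treated strand, so reads from a gene on the other strand cannot be told apart from those of the target.

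Of the 15 genes with the largest excess under ASO5, 14 were called lower than control with ASO3, and with ASO5 THSD4 alone was called against control. RPS28P7 was called against control with neither. VCL, which encodes the focal adhesion protein vinculin (chr10:73995193-74121363), stood at 9.52, 10.1 and 8.02 TPM with ASO3, at 65.9, 63.1 and 67.7 TPM with ASO5 and at 41.8, 59.6 and 62 TPM in the controls. Its difference of 2.77 (SE 0.09, adjusted p = 0.00079) corresponded to a 7.11-fold ratio of means. PITRM1, a mitochondrial peptidase (chr10:3137728-3172841), had 8.31, 5.81 and 6.25 TPM with ASO3 and 52.6, 47 and 44.1 TPM with ASO5, a 7.06-fold ratio. MSRA, a methionine sulfoxide reductase (chr8:10054268-10428891), had 2.11, 1.36 and 1.51 TPM with ASO3 and 16.1, 12.9 and 14 TPM with ASO5, while the controls lay between 15.5 and 15.8 TPM. In each of these 3 genes every ASO3 library lay below every control library. That ASO3 and ASO5 libraries did not overlap was a condition for naming these genes. P2RX5, an ATP-gated ion channel, showed the widest ratio of means among them at 9.05, from 1.12 to 2.7 TPM with ASO3 and 15.1 to 18.6 TPM with ASO5. CCNY, a cyclin that acts at the plasma membrane, differed by 2.78 (SE 0.25). AFDN, which links nectins to actin at cell junctions, differed by 2.31 (SE 0.10).

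TEAD1, a transcription factor through which the Hippo effector YAP can act (chr11:12674591-12944483), had 5.23, 5.34 and 5.11 TPM with ASO3 and 24.1, 25.9 and 33 TPM with ASO5. Its controls were wide, at 12.8, 30.1 and 36.7 TPM. HTRA1, a secreted serine protease, had 4.54 to 9.37 TPM with ASO3 and 31.1 to 38.4 TPM with ASO5. NEO1, a netrin and repulsive guidance receptor, differed by 2.01 (SE 0.12). THSD4, a microfibril-associated protein with a span of chr15:71096952-71783383, stood at 8.48 to 9.71 TPM with ASO3 and 38.3 to 49.1 TPM with ASO5, but its controls were at 44.5, 115 and 116 TPM. It was called lower than control for both ASOs, at -3.17 with ASO3 and -0.999 with ASO5 (adjusted p = 0.049). ZNF875, NXPE3, BLCAP and ZFAND3 completed the group, with differences of 2.62, 2.18, 2.07 and 2.06. RPS28P7, a processed pseudogene of a ribosomal protein gene, was the largest by fitted value (6.08, SE 1.72, adjusted p = 0.0498) but rested on single libraries. It was listed at 0 and near 0 in ASO3 replicates 3 and 5 and at 172 TPM in replicate 4, against 217 to 272 TPM with ASO5. It shares sequence with its parent gene and was not called without the replicate block (adjusted p = 0.101) or without replicate 3 (0.15) or 5 (0.178).

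**Figure D1:**
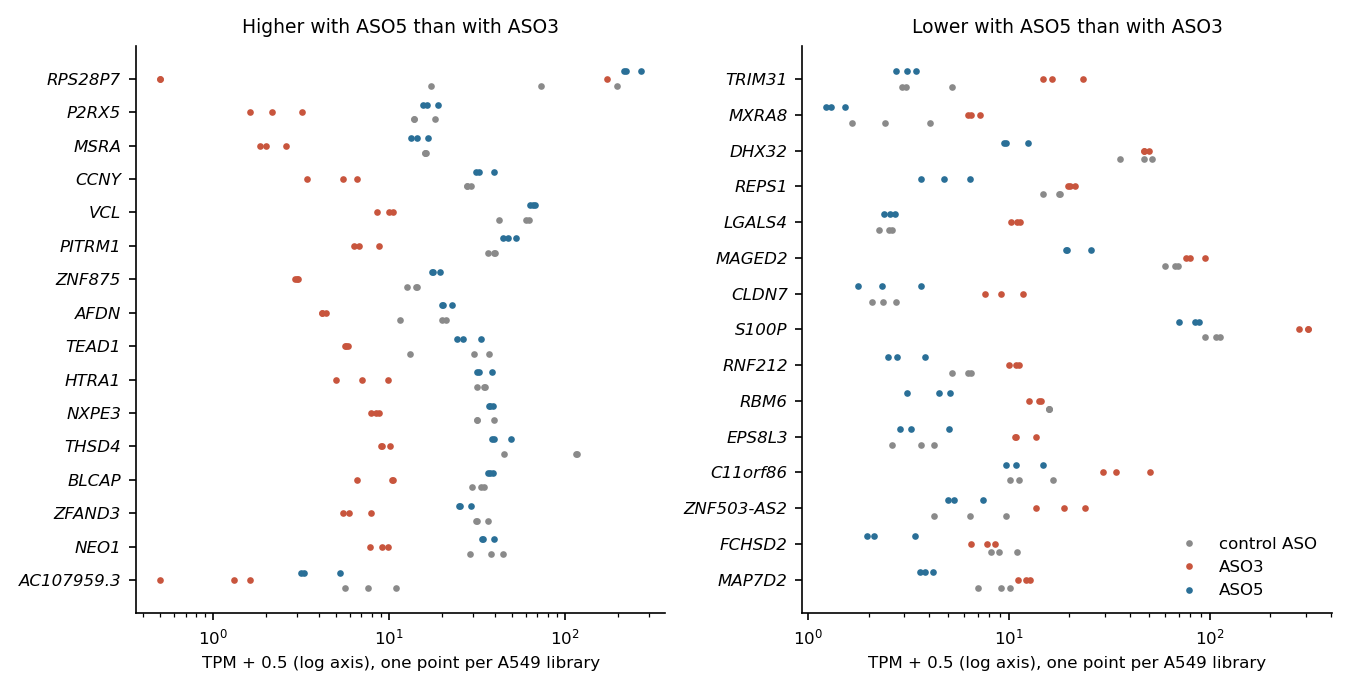
TPM + 0.5 on a log axis for the target and the 30 genes named by size of difference, with 1 point per A549 library (grey, control ASO; red, ASO3; blue, ASO5). In the left panel the blue points lie near the grey ones and the red points to their left for most genes; in the right panel either the red or the blue points stand apart from the controls, as for TRIM31 (red) and DHX32 (blue).

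The 15 genes with the largest deficit under ASO5 are given by their calls against control. For 8 of them ASO3 was called higher than control and ASO5 was not called. TRIM31, an E3 ubiquitin ligase (chr6:30102897-30113106), had 23, 15.9 and 14.3 TPM with ASO3, 2.25, 2.94 and 2.6 TPM with ASO5, and 2.45 to 4.69 TPM in the controls. Its difference was -2.53 (SE 0.19, adjusted p = 0.00175). S100P, a calcium-binding protein of epithelial cancers (chr4:6693069-6697170), stood at 308, 278 and 307 TPM with ASO3, 69.9, 87.8 and 83.8 TPM with ASO5 and 94.1 to 112 TPM in the controls. LGALS4 (galectin-4) had 9.71 to 10.9 TPM with ASO3 against 1.9 to 2.22 TPM with ASO5, and CLDN7, a claudin of tight junctions, had 7.11 to 11.3 TPM against 1.26 to 3.16 TPM. These 4 genes are known from epithelial and, for LGALS4 and TRIM31, intestinal tissue. EPS8L3, C11orf86 and ZNF503-AS2 had the same calls, with differences of -1.70, -1.68 and -1.66. MXRA8, a cell surface immunoglobulin family protein, differed by -2.30 (SE 0.17). It was called higher than control with ASO3 (1.39, adjusted p = 0.01) and stood at -0.91 with ASO5 (adjusted p = 0.067).

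For 4 genes ASO5 was called lower than control and ASO3 was not called. DHX32, a DEAH-box helicase family member (chr10:125836337-125896436), had 49.3, 46.6 and 46.6 TPM with ASO3, 11.9, 8.97 and 9.22 TPM with ASO5 and 35.1, 50.9 and 46.5 TPM in the controls. The difference was -2.20 (SE 0.08, adjusted p = 0.00079), and against control DHX32 stood at 0.12 with ASO3 and fell by 2.08 with ASO5. REPS1, an endocytic adaptor, had 19.2 to 20.9 TPM against 3.17 to 5.86 TPM. RBM6, a splicing regulator, had 12 to 13.9 TPM against 2.6 to 4.58 TPM, with controls at 15.3 to 15.4 TPM. FCHSD2, which acts on endocytic actin, differed by -1.64. For the other 3 genes ASO3 was called higher and ASO5 lower than control. MAGED2, a MAGE family protein (chrX:54807599-54816012), had 75.5 to 94.5 TPM with ASO3 and 18.6 to 25.2 TPM with ASO5, a difference of -1.97 (SE 0.06). Against control it was at 0.34 with ASO3 (adjusted p = 0.0226) and -1.62 with ASO5. MAP7D2, a microtubule-binding protein, differed by -1.63 and was at 0.47 with ASO3 (adjusted p = 0.0338) and -1.16 with ASO5. RNF212, known from meiotic recombination, was at 0.84 with ASO3 and -0.996 with ASO5.

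Over all genes called higher with ASO5, the control mean was nearer to ASO5 for 1519 of 2338 (65%). For those called lower it was nearer to ASO5 for 1124 of 1910 (59%). Among genes higher by at least 1 on the log2 scale, it was nearer to ASO5 for 205 of 253 (81%). Among the 235 lower by at least 1, it was nearer to ASO5 for 128 (54.5%). The control lay between the ASOs for 152 of the 253 and 176 of the 235. These places use the same ASO libraries as the differences and are given as a description.

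Basement membrane genes were higher with ASO5 almost throughout. The basement membrane is the sheet of type IV collagen, laminin, nidogen and perlecan on which epithelial cells sit. Of 18 tested members, 15 were called higher and 0 lower, and all 18 estimates were above 0 (median 0.927, against 0.00241 for all genes). Without the replicate block 13 were called. Counts for this and the lists below stand beside 15.9% higher and 13% lower over all genes. Without the block these shares were 7.34% and 5.52%. The median relative to control was -0.791 for ASO3 and -0.0706 for ASO5, with 15 of 18 called lower than control by ASO3 and 2 by ASO5. COL18A1, the precursor of endostatin, had 32.6, 27.4 and 30.5 TPM with ASO3, 89.9, 82.1 and 78.6 TPM with ASO5 and 105 to 128 TPM in the controls. Its difference was 1.46 (SE 0.06, adjusted p = 0.00079), and it was below control with both ASOs (-1.93 and -0.47). AGRN (agrin, a heparan sulfate proteoglycan) had 40.8, 38.6 and 31.3 TPM against 94.6, 102 and 88.2 TPM, with controls at 87.2 to 105 TPM.

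COL4A1 and COL4A2, the chains of the most common type IV collagen, moved with them. COL4A1 had 2.28 to 2.94 TPM with ASO3 and 7.38 to 9.23 TPM with ASO5, with controls at 6.72 to 11.15 TPM. COL4A2 had 13.5 to 23.7 TPM against 33.8 to 47.9 TPM, with controls at 43.9 to 46.3 TPM. Both were called lower than control with ASO3 (-1.59 and -1.38) and were not called with ASO5 (-0.16 and -0.23). LAMC3, a laminin gamma chain at low level, had 0.314 to 0.753 TPM against 1.4 to 1.82 TPM, and was not called without replicate 4 (adjusted p = 0.0729) or 5 (0.0727). LAMA5 and HSPG2 (perlecan) differed by 1.12 and 0.95. The 3 members that missed the threshold were NID1, COL4A4 and COL4A6, with estimates of 0.49, 0.30 and 0.09.

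Of 14 microfibril and elastic fibre genes, 7 were called higher and 0 lower, beside 15.9% and 13% of all genes. The median was 0.253, and 4 were called higher without the block and 3 without replicate 5. Besides THSD4 the called genes included EFEMP1 (0.96), FBN2 (0.67) and FBLN1 (0.63, SE 0.06), the last with 40.4 to 54.9 TPM with ASO3 and 62.7 to 82 TPM with ASO5. FBN2 was not called without replicate 3 (adjusted p = 0.0584) or 5 (0.0725). Of 23 transforming growth factor beta target genes, 11 were called higher and 2 lower (median 0.0997), beside the same shares of all genes. Those higher included 3 basement membrane genes, the ligand TGFB2 (7.4, 9.77 and 10.5 TPM against 15.4, 19.3 and 22.1 TPM, a difference of 1.00) and TGFBI (0.72). The 2 lower were CCN2 (-0.49) and IGFBP3 (-0.67). SMAD7 and ID1, immediate targets of the pathway, had estimates of 0.10 and -0.25 and were not called. Of 16 YAP/TEAD targets, 7 were called higher and 3 lower, again beside 15.9% and 13% of all genes (median 0.0511, and -0.00437 without replicate 5). The counts without the block were 5 and 2. The list includes the factor TEAD1 itself, which is counted among those higher, at 2.28. ANKRD1 was at 1.08 and AXL at 0.68, and CCN1, CCN2 and AJUBA at -0.45, -0.49 and -0.76. ANKRD1 was not called without replicate 5 (adjusted p = 0.0519). The call for AJUBA was lost with the controls in the fit (0.054), in which control replicate 5 stood at 87.9 TPM against 40.1 and 37.3 TPM.

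**Figure D2:**
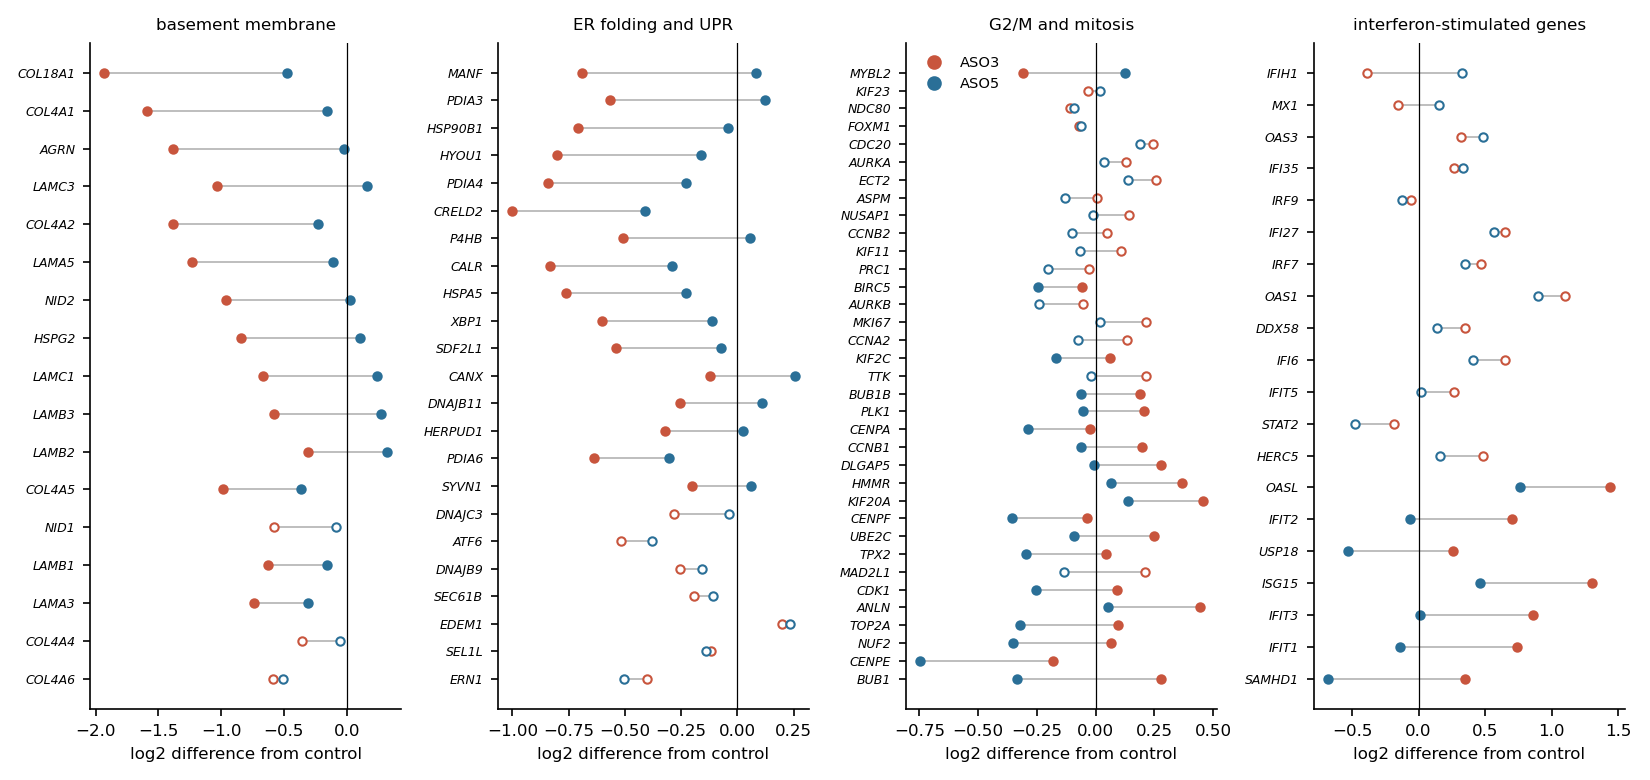
Log2 difference from the A549 controls for tested members of 4 gene lists, with ASO3 in red and ASO5 in blue and filled points where ASO5 against ASO3 was called. In the basement membrane and endoplasmic reticulum panels the blue points lie nearer 0 and the red points to their left for nearly every called gene; in the panels of G2/M and interferon-stimulated genes the red points of the called genes lie to the right, except for MYBL2.

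Folding factors of the endoplasmic reticulum were also higher with ASO5. When unfolded protein accumulates there, the sensors IRE1, PERK and ATF6 raise chaperones, disulfide isomerases and degradation factors, a program called the unfolded protein response (UPR). Of 23 tested genes, 16 were called higher and 0 lower (median 0.378), and 13 without the replicate block. Relative to control the median was -0.518 with ASO3 and -0.11 with ASO5, with 14 called lower by ASO3 and 3 by ASO5. The controls were thus nearer ASO5. HSPA5 (BiP, the main luminal chaperone) had 158, 150 and 150 TPM with ASO3, 224, 219 and 218 TPM with ASO5, and 244 to 280 TPM in the controls. HSP90B1 (GRP94) had 182, 219 and 213 TPM against 290, 336 and 348 TPM, a difference of 0.67 (SE 0.04, adjusted p = 0.0013). MANF, a secreted stress factor, had 63.8, 45.8 and 46.3 TPM against 99.2, 86.5 and 79.8 TPM, a difference of 0.77. PDIA3 and HYOU1 differed by 0.69 and 0.64. The members not called included the sensors ATF6 (0.14) and ERN1 (-0.10), and SEL1L and EDEM1, which act in degradation (-0.02 and 0.03).

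The promoters of these genes were searched for the endoplasmic reticulum stress element (ERSE), the motif through which ATF6 acts together with the factor NF-Y, as CCAAT and CCACG separated by 9 bases on either strand. The window ran from 250 bases before to 50 bases after the start in RefSeq (GRCh38.p14), and 22 of the 23 genes had an entry. The motif was found in 6 of 22, all 6 among the 15 called higher and 0 among the 7 not called. It was found in 22 of 27305 promoters overall (0.0806%) and in 14 of the 10351 of genes tested in A549 (0.135%). The 6 genes are shown because they hold the motif and moved together. The lines give 80 bases of the gene's own strand, 5′ to 3′, with the motif in capitals, on either strand.
HSPA5 at chr9:125241361-125241440, minus strand: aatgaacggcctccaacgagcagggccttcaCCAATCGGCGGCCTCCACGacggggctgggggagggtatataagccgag
HSP90B1 at chr12:103930290-103930369, plus strand: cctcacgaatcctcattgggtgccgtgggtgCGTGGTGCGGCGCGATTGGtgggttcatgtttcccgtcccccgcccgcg
CALR at chr19:12938359-12938438, plus strand: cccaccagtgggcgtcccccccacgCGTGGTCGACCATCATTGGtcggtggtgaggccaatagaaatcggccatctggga
CANX at chr5:179698747-179698826, plus strand: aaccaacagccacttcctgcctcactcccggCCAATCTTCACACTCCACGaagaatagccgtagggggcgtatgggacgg
CRELD2 at chr22:49918523-49918602, plus strand: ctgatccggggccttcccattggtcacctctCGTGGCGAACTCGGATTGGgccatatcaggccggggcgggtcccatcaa
XBP1 at chr22:28800573-28800652, minus strand: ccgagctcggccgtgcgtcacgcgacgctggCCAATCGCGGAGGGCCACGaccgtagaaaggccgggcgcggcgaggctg

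The differences of the other 4 genes shown were 0.54 for CALR (calreticulin), 0.38 for CANX (calnexin), 0.59 for CRELD2 and 0.49 for XBP1, the transcription factor downstream of IRE1. CALR had 301 to 345 TPM with ASO3, 446 to 482 TPM with ASO5 and 506 to 616 TPM in the controls. CANX differed from the others in that ASO3 was not called against control (-0.12, adjusted p = 0.455). A match is a description of the letters in the window, not evidence of binding.

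Sterol genes were above control with either ASO, and further above it with ASO5 at the median. Of 25 cholesterol synthesis and uptake genes, 13 were called higher and 1 lower with ASO5 (median 0.177), and 6 and 0 without the replicate block. Against control, 13 were called higher with ASO3 (median 0.227) and 17 with ASO5 (median 0.475). TM7SF2, a sterol reductase, had 26.7, 24.7 and 24.7 TPM with ASO3 and 46.9, 51.2 and 41.6 TPM with ASO5, with controls at 20.7 to 24.3 TPM. HMGCS1, the synthase at the start of the mevalonate pathway, had 70.7, 112 and 112 TPM with ASO3 and 114, 167 and 183 TPM with ASO5, a difference of 0.66, and was not called without the block (adjusted p = 0.11). The sterol regulatory element TCACCCCAC was in 1 of 18 list promoters, that of SREBF2, which was not called, and in 0.425% of all promoters and 0.377% of those of tested genes.

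Fatty acid genes were mixed, with 5 of 13 called higher and 2 lower. ACACA, the acetyl-CoA carboxylase that makes malonyl-CoA, had 30.5, 22 and 25 TPM with ASO3, 57.7, 55.9 and 57 TPM with ASO5, and controls at 45.5 to 58.9 TPM. ELOVL6, the elongase that acts on its products, had the opposite order, with 103, 125 and 105 TPM against 48.4, 74.2 and 55.4 TPM and controls at 48.8 to 65.3 TPM. ACSL3 and SCD differed by 0.67 and 0.40. SCD was not called without the block (adjusted p = 0.0844). Of 20 lysosomal genes, 10 were called higher and 1 lower (median 0.155, and 4 and 0 without the block). Leaving out replicate 3, 4 or 5 gave 4, 7 and 4 higher. LAMP1, a main glycoprotein of the lysosomal membrane, had 64.5, 47.6 and 50.1 TPM against 97.9, 85.6 and 88 TPM. GLB1 and CTSB differed by 0.53 and 0.47, and the protease CTSD by -0.40. Without the block CTSB and CTSD were not called (0.0843 and 0.0665).

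Mitotic genes were lower with ASO5 by small amounts. Of 35 G2/M genes, 18 were called lower and 1 higher (median -0.231), and 31 estimates were below 0. Without the replicate block 4 were called lower and 0 higher, and without replicate 5 the count was 3 lower and 1 higher. Leaving out replicate 3 or 4 gave 11 and 6 lower. The median relative to control was 0.106 with ASO3 and -0.0763 with ASO5. BUB1, a kinase of the spindle checkpoint, had 34.6, 42.9 and 39.8 TPM with ASO3 and 25.7, 24.1 and 26.2 TPM with ASO5, a difference of -0.61 (SE 0.09, adjusted p = 0.00739), with controls at 27.6 to 38.8 TPM. CENPE and NUF2, kinetochore proteins, differed by -0.57 and -0.42. Neither was called without the block (0.0531 and 0.109). TOP2A and CCNB1 differed by -0.41 and -0.26. MYBL2, a transcription factor of the cell cycle and the exception, was higher with ASO5 by 0.43, with overlapping groups, and was not called without the block (0.128).

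Of 40 genes of the preceding G1/S phase, 12 were called higher and 2 lower (median 0.0968). Without the block 3 of the 40 were called higher, near the 7.34% of all genes, and 0 lower. Leaving out replicate 3, 4 or 5 gave 5, 9 and 4 higher. GINS2, part of the replicative helicase, had 17.9, 16.7 and 16.7 TPM with ASO3, 27.8, 23 and 26.7 TPM with ASO5 and 25.1 to 29.1 TPM in the controls. LIG1, the ligase of lagging strand synthesis, differed by 0.54 (adjusted p = 0.0888 without the block) and CHAF1B, a histone chaperone, by 0.47. CCNE1 (cyclin E1) was among those lower, by -0.43, and was not called without the block (0.101). Against control, 17 of the 40 were called lower with ASO3 and 4 with ASO5.

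Interferon-stimulated genes were lower with ASO5, though at low levels. These genes are switched on by the factor ISGF3 after cells sense foreign nucleic acid or meet interferon. Of 21 tested, 7 were called lower and 0 higher (median -0.242, and 6 without the replicate block). Leaving out replicate 3, 4 or 5 gave 4, 4 and 3 lower. Against control, 7 were called higher with ASO3, and 3 higher and 2 lower with ASO5. ISG15, a ubiquitin-like modifier, had 43.9, 30.1 and 29.7 TPM with ASO3, 23.4, 16.2 and 17.2 TPM with ASO5 and 16.9, 13.5 and 10.6 TPM in the controls, so both ASOs were above control (1.31 and 0.46). IFIT3 had 4.32 to 5.62 TPM with ASO3 against 2.26 to 2.83 TPM with ASO5, with controls at 2.26 to 2.96 TPM. IFIT1 had 2.91 to 3.56 TPM against 1.21 to 1.86 TPM. When single pairs were left out, IFIT1 was called in none of the 3 settings (adjusted p from 0.0544 to 0.0611) and IFIT3 was lost without replicate 5 (0.0518). SAMHD1, which degrades nucleotides, had 9.73 to 9.75 TPM against 3.92 to 4.94 TPM and fell below control with ASO5 (-0.68, adjusted p = 0.012). The ISGF3 subunits STAT2 and IRF9 were at -0.29 and -0.07, and were not called.

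The interferon-stimulated response element, the binding motif of ISGF3, was searched for as GAAA and GAAA separated by 2 bases on either strand, in the same window. It was in 10 of the 15 list promoters with an entry, 3 of the 4 called lower and 7 of the 11 not called, and in 3.65% of all promoters and 2.67% of those of tested genes. The 3 lower genes with the motif are shown because they moved the same way. 
ISG15 at chr1:1013355-1013434, plus strand: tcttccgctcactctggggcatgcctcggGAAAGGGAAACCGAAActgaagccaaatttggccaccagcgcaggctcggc
IFIT1 at chr10:89392485-89392564, plus strand: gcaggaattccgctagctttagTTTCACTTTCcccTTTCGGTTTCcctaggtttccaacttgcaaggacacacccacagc
IFIT3 at chr10:89327840-89327919, plus strand: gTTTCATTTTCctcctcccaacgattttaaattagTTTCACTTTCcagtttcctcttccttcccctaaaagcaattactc

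Subunits of the immunoproteasome, which interferon gamma is known to raise, went the other way from the interferon-stimulated list. PSMB9 had 13.3, 11.5 and 11.6 TPM with ASO3 and 26.5, 22.5 and 21.7 TPM with ASO5 (0.93, SE 0.07), PSMB10 differed by 0.71 and PSMB8 by 0.40. PSMB10 was not called without the block (0.0733), and PSMB8 was not called without replicate 5 (0.0587). The largest difference among 37 proteasome genes was that of the constitutive subunit PSMB4, with 172, 140 and 143 TPM against 428, 392 and 369 TPM and controls at 347 to 457 TPM. Its difference of 1.39 (SE 0.05) stood against a list median of 0.0638. In all, 12 of the 37 were called higher and 1 lower. Without the block 3 of the 37 were called higher, near the 7.34% of all genes, and 0 lower. Leaving out a pair gave 3 to 6 higher. Of 16 NF-kB targets, 6 were called higher and 3 lower (5 and 1 without replicate 5). The counts without the block were 2 and 1, beside 7.34% and 5.52% of all genes. CCL2, a monocyte chemokine, had 4.01 to 5.4 TPM with ASO3 against 10.2 to 14.1 TPM with ASO5. CXCL8, a neutrophil chemokine, had 8.2 to 10.9 TPM against 3.14 to 4.43 TPM. BIRC3 and RELB differed by 0.94 and 0.83, the second not called without the block (0.117).

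Of 18 cytosolic chaperone and heat shock genes, 9 were called lower with ASO5 and 1 higher (median -0.146). Without the block 1 of the 18 was called lower, near the 5.52% of all genes, and 0 higher, and leaving out a pair gave 3 to 6 lower. HSPB1 (HSP27) had 1445, 1119 and 1210 TPM with ASO3 and 984, 988 and 903 TPM with ASO5, a difference of -0.39 (adjusted p = 0.0202, and 0.0621 without the block). HSPA4L, HSPA1B and FKBP4 differed by -0.55, -0.38 and -0.30. The calls for HSPA4L and HSPA1B were lost without the block (adjusted p = 0.0954 and 0.0833). HSPA4L was also not called without replicate 4 (0.088) or 5 (0.112). With the controls in the fit, HSPA1B and FKBP4 were not called (0.575 and 0.0756). HSPA1B is nearly identical to HSPA1A, so its reads may be split between the pair. Control replicate 5 held 45.8 TPM of HSPA1B against 174 and 223 TPM in the other controls. The share of signal from the mitochondrial genome was 8.9% to 11.1% with ASO3, 6.48% to 9.37% with ASO5 and 7.64% to 9.98% in the controls. Of 13 such genes, 5 were called lower and 0 higher (median -0.249), 2 without the block, and 0 without replicate 3. MT-ND1, a subunit of complex I, had 4204, 3891 and 3603 TPM against 2511, 2868 and 2793 TPM. Nuclear genome copies can share its reads. Ribosomal proteins of the cytosol stayed near the all-gene median, with 9 of 81 called higher and 1 lower (median -0.00622).

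Among NRF2 targets 10 of 30 were called higher and 2 lower. The counts without the block were 3 and 1, beside 7.34% and 5.52% of all genes. ABCC3, an export pump, had 68.2 to 74.3 TPM with ASO3, 141 to 162 TPM with ASO5 and 168 to 172 TPM in the controls. GPX2, a glutathione peroxidase, differed by -0.67. Of 15 epithelial markers 6 were called higher and 3 lower, beside 15.9% and 13% of all genes (5 and 2 without the block). CDH1 (E-cadherin) differed by 0.71, CLDN1 by 0.67, CLDN4 by -0.69 and CLDN7, given above, by -1.92. Of 29 hypoxia and glycolysis genes, 9 were called higher and 4 lower, the lower calls near the 13% of all genes. The counts without the block were 5 and 2. ADM was at 1.04, P4HA2 at 1.02 and BNIP3 at -0.89. CA9, at 1.14 to 3.53 TPM, was not called without the block (0.108). It was also not called without replicate 3, 4 or 5 (0.103, 0.0736 and 0.116). The remaining lists are in the plot of shares called. Among them the p53 targets had 7 of 28 called higher and 1 lower, beside 15.9% and 13% of all genes. In either direction this was 28.6% against 28.8% of all genes. Without the block 4 of the 28 were called higher and 0 lower, beside 7.34% and 5.52%.

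**Figure D3:**
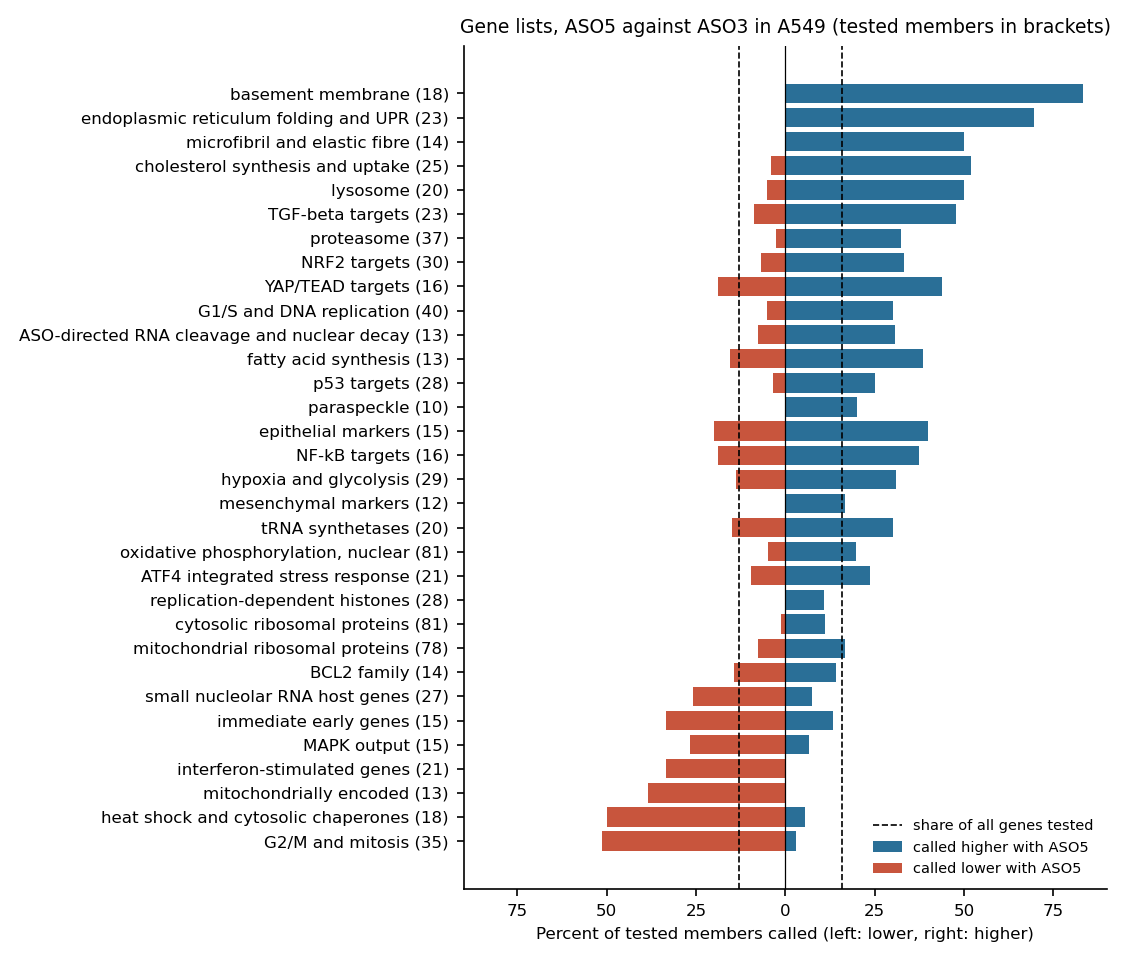
Percent of the tested members of each gene list called higher (blue, right) or lower (red, left) with ASO5 than with ASO3 in A549, with tested members in brackets and the shares over all genes as dashed lines. Basement membrane (15 of 18 higher) and endoplasmic reticulum folding (16 of 23 higher) are at the top and G2/M genes (18 of 35 lower) at the bottom.

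The share of genes called higher with ASO5 differed by the genomic span of the gene; the trend was not tested. Of 393 tested genes that span over 300 kb from start to end, 103 were called higher and 21 lower (26.2% and 5.34%), with a median of 0.181. Of 3740 genes under 10 kb, 448 were higher and 521 lower, with a median of -0.0285. By at least 1 on the log2 scale, 35 genes over 300 kb were higher and 1, FCHSD2, was lower. The median of the long genes relative to control was -0.498 with ASO3 and -0.245 with ASO5. MSRA, CCNY and THSD4, described above, each span more than 300 kb.

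**Figure D4:**
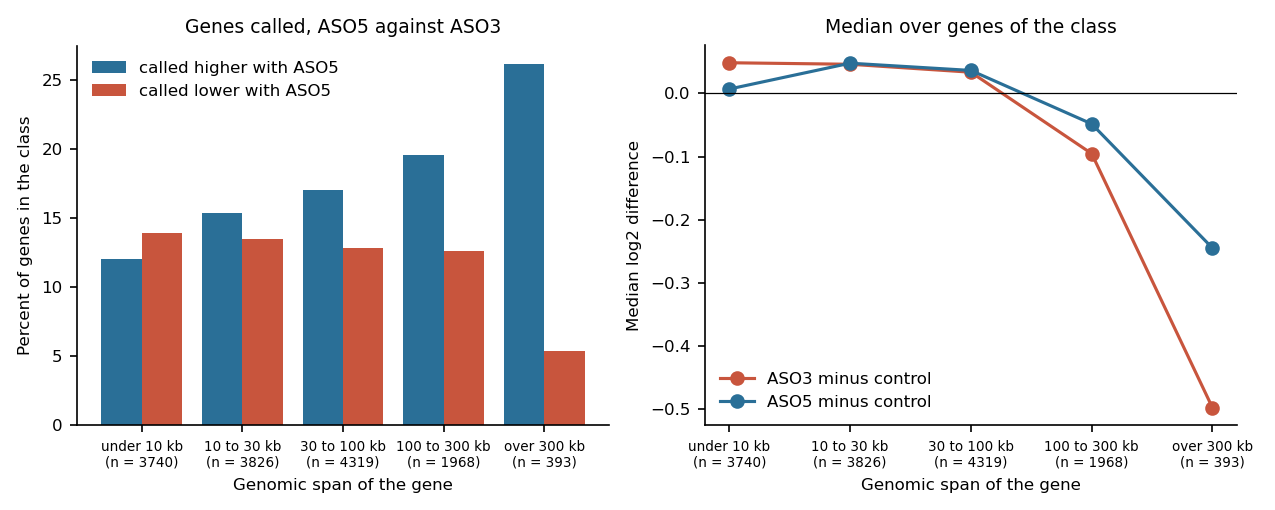
Left, percent of genes called higher (blue) or lower (red) with ASO5 than with ASO3 by genomic span of the gene in 5 classes. Right, median log2 difference from control in the same classes for ASO3 (red) and ASO5 (blue), with the last class at -0.498 and -0.245.

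The same contrast in NCI-H460 had 2 pairs and a shifted scale. In a joint fit of 10 libraries and 12760 genes tested in both lines, 4213 genes (33%) were higher and 1273 (9.98%) lower with ASO5 in NCI-H460, and the median over all genes was 0.207. After median-of-ratios scaling within each line the counts were 2488 and 2850, so directions there are read against the median. Of the 2162 genes higher in A549, 1067 were called higher and 103 lower in NCI-H460 (722 and 327 after scaling). Of the 1695 lower in A549, 419 were called lower and 407 higher (681 and 218 after scaling). The difference between lines was called for 3906 genes (30.6%). Across the 12760 genes, which are not independent replicates, Pearson's r was 0.291 and Spearman's rho 0.22.

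Most of the genes with the largest excess in A549 were also higher in NCI-H460. Of the 16 named genes higher in A549, the target included, 14 were called higher in NCI-H460 under both scalings. VCL differed by 3.17 there, PITRM1 by 2.79, AFDN by 2.90 and TEAD1 by 3.29, the last more than in A549 (adjusted p = 0.0128 for the difference). The target itself was at 1.07 (adjusted p = 0.055). Of the 10 named lower genes tested in both lines, 6 were called lower in NCI-H460 and 9 after median-of-ratios scaling. MAGED2 had nearly the same difference there (-1.93), while DHX32 was at -0.31 and S100P at -0.41 and both differed between lines (adjusted p = 0.00364 and 0.00598). Of the lists, basement membrane genes had 11 of 16 called higher and 0 lower in NCI-H460 (8 and 1 after scaling). Endoplasmic reticulum genes had 14 of 23 higher and 2 lower, which became 6 and 5 after scaling. Sterol genes had 4 of 24 higher and 6 lower, with a median of -0.0712, which became 2 and 15, with a median of -0.302, after scaling.

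**Figure D5:**
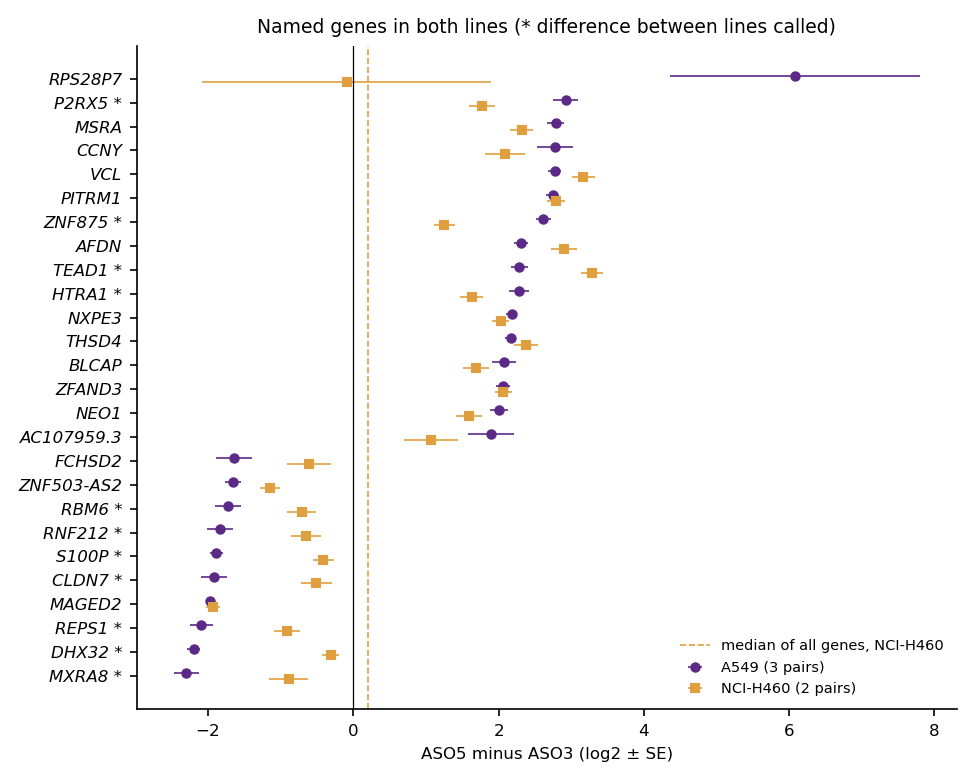
ASO5 minus ASO3 as log2 ± SE for the target and the named genes tested in both lines, in A549 (purple circles, 3 pairs) and NCI-H460 (orange squares, 2 pairs); stars mark genes whose difference between lines was called. The dashed line is the median of all genes in NCI-H460, 0.207; the 2 lines lie close together for MAGED2 and PITRM1 and far apart for DHX32 and S100P.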

How the data were processed

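The submitters' processing notes list kallisto, sleuth 0.30 and hg38. The sources used here name neither an annotation release nor the strand handling. The authors deposited a signal per gene name and library in TPM (59427 names). The column sums of the 6 libraries ran from 949663 to 1056277, so the values had been rescaled. TPM keeps no read number: depth is unknown and no counting interval is given. Each ASO group had been scaled in its own comparison. The control means of the authors' deposited ASO3 and ASO5 tables lay at 0.9969 and 0.9991 of the TPM table, so the scales of the groups differ by little. Those tables were otherwise not used, and fold values here are not theirs.

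Differences were computed here as log2(TPM + 0.5), which understates changes of low genes, for genes averaging 1 TPM or more across 15 A549 libraries. The test was limma 3.58.1 in R 4.3.3 (lmFit, eBayes with trend, two-sided, Benjamini-Hochberg over all genes, called under 0.05), with group and replicate number as terms. This leaves 2 residual degrees of freedom (5.5 with the prior). Libraries were paired by the replicate numbers of their labels. Deviations from the group means correlated at 0.41, 0.18 and 0.13 in pairs 3, 4 and 5. However, ASO3 replicate 4 correlated at 0.25 with ASO5 replicate 5, and ASO3 replicate 5 at 0.045 with ASO5 replicate 4. The check thus sets replicate 3 apart but cannot decide how replicates 4 and 5 pair. Comparisons with control used the 9 libraries with the same terms. Lines were compared in a joint fit of 10 libraries. The code was tested on simulated data.

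Named genes were the target, the 15 largest differences in each direction among called genes with groups that did not overlap, 3 of 3 pairs one way and a mean of at least 5 TPM in a group (clone and small RNA names counted only), and from each gene list the 4 called members with the largest difference. TGFBI, AXL, CCN1, CCN2, IGFBP3, LAMA5, HSPG2, SMAD7, ID1, NID1, COL4A4, COL4A6, HSPA5, CALR, CANX, CRELD2, XBP1, ATF6, ERN1, SEL1L, EDEM1, SREBF2, TOP2A, CCNB1, STAT2, IRF9, KRT8, KRT18, CD14, CD68, ITGAM, NAPSA and COL1A1 were named after their values were seen. The libraries, gene lists and rules were chosen with earlier results of these data known. Some genes that these rules name are not reported here, though they remain in the counts and medians of lists. Positions are from GENCODE v29 (GRCh38), which had a span for 14246 of the tested genes, and promoters are from RefSeq.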

Additional observations from a re-analysis of the deposited data

Results flagged for a closer look

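Of 95 named genes, 85 were tested in both lines, and for 38 the difference between ASO5 and ASO3 itself differed between A549 and NCI-H460 by the interaction term of the joint limma fit (adjusted p under 0.05). Over all genes tested in both lines the difference was called for 3906 of 12760 (30.6%). Apart from the target, the named genes were picked by the size of their A549 difference or after their values were seen. The interaction term uses the same A549 libraries, so the count of 38 is not independent of that choice. Values are the A549 difference minus the NCI-H460 difference on the log2 scale. After median-of-ratios scaling 35 of the 38 were still called, and BUB1, RBM6 and TGFB2 were not (adjusted p = 0.122, 0.0521 and 0.115).

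The value was above 0 for 18 genes: 1.36 for ZNF875, 0.705 for MANF, 0.794 for PSMB4, 0.891 for COL4A2, 0.832 for COL18A1, 0.454 for CTSB, 0.688 for P4HA2, 0.595 for ADM, 0.662 for PSMB10, 0.774 for PSMB9, 1.15 for P2RX5, 0.665 for ACACA, 0.646 for RELB, 0.386 for GLB1, 0.417 for FBLN1, 0.335 for ACSL3, 0.648 for HTRA1 and 0.305 for HYOU1.

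It was below 0 for 20 genes: -1.89 for DHX32, -1.11 for AJUBA, -1.47 for S100P, -1.44 for IFIT3, -0.907 for BNIP3, -1.6 for HSPA4L, -1.22 for CXCL8, -0.974 for SAMHD1, -1.18 for FBN2, -0.833 for GPX2, -0.89 for GSR, -1.18 for REPS1, -1.25 for CENPE, -1.41 for CLDN7, -1 for TEAD1, -1.19 for RNF212, -1.41 for MXRA8, -0.545 for BUB1, -1.01 for RBM6 and -0.552 for TGFB2.

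Whether the estimates of the 2 lines had opposite signs depended on the scaling of NCI-H460. They did for 7 of the 38 genes as deposited and for 12 after median-of-ratios scaling, and for 5 under both, namely AJUBA, IFIT3, HSPA4L, GPX2 and CENPE. Without NCI-H460 replicate 1, the count of genes whose difference varied between lines fell from 3906 to 1465 over all genes tested.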

How the results depend on the processing

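Beyond the counts with and without the replicate block in A549 (4248 and 1895), the count was 1570 with all 15 libraries and no block, and 1687 when genes with any value above 0 were tested (34359 genes, so the adjustment covers more). Leaving out a pair gave 1928 to 2689 calls, the lowest without replicate 5. As a background for the lists, 1297, 1515 and 1195 of 14740 genes were higher without replicate 3, 4 or 5. The counts lower were 957, 1174 and 733. With no block, leaving out single libraries gave 660 to 2049, the lowest without ASO3 replicate 5. The other alternatives gave 2858 to 4258. In NCI-H460 the 5486 calls became 3368 with no block and 2537 to 5173 without a pair, the lowest without NCI-H460 replicate 1. The 3906 differences between lines became 1450 with no block and 1465 to 4501 without a pair. Median-of-ratios scaling turned the share higher with ASO5 from 76.8% to 46.6% of calls in NCI-H460 and from 22.6% to 57.9% in the difference between lines. In A549 that scaling moved the all-gene median to 0.0136.
For 95 named genes and 14 alternatives (1320 combinations), 1190 kept direction and side of the threshold, 130 kept direction but were no longer called, and 0 reversed. Of these 130, 28 came with all 15 libraries and no block, 21 with no filter, 19 with no replicate block and 16 without replicate 5. The cause of the losses was not tested. Because TPM values keep no depth, low genes such as the target, IFIT1 and LAMC3 have an unknown counting error.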

Other observations

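Values of 3 lists in NCI-H460 are given beside those in A549; the differences between lines were not tested for lists. YAP/TEAD targets, a list that includes TEAD1 itself, had 12 of 16 members called higher and 0 lower in NCI-H460 (10 and 0 after median-of-ratios scaling). Their median was 0.755 against 0.0511 in A549. Cytosolic ribosomal protein genes had 35 of 81 called lower and 0 higher there (77 and 0 after scaling), with a median of -0.276 against -0.00622 in A549. Mitochondrially encoded genes had 5 of 13 called lower in NCI-H460 (9 after scaling), with a median of -0.305 (-0.539 after scaling) against -0.249 in A549.
By gene type, 31% of 12037 protein-coding genes, 22.2% of 510 lincRNA genes and 15.9% of 685 antisense genes were called in A549.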
